A study of Mus musculus with 20 samples.

Results

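The mitosis and G2/M genes are 55 genes whose products take a cell from the end of DNA replication through chromosome segregation to division. They were listed by gene symbol and not by a threshold on a measured value, but earlier results of these data were known when the list was made. A probe set annotated with the symbol alone was present for 53 of the 55, among 17771 genes with such a probe set, and the brightest one stood for a gene that had several. All 53 were bright enough to be tested, as were 11766 genes in all. Ccnb1 (cyclin B1) and Mad2l1 (a spindle checkpoint protein) had no such probe set and are not analysed here. Levels were measured in eosinophils, the granulocytes of allergic inflammation, grown in culture from mouse marrow. The cells came from mice lacking Dusp5, whose product is a nuclear phosphatase of the ERK MAP kinases (Dusp5-/-, called knockout), and from Dusp5+/+ (wild-type) mice, 5 of each genotype. On culture day 12 they received IL-33, an alarm cytokine, at 25 ng/ml for 4 hours, or medium alone. This gave knockout cells with IL-33, knockout cells untreated, wild-type cells with IL-33 and wild-type cells untreated, with 5 one-colour arrays each and 20 in all. The sources used here do not give the strain, age or sex of the mice, nor which part of Dusp5 was deleted.

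Values are log2 expression as deposited, so a difference of 1 is a doubling of signal, and array medians lay between 4.25 and 4.32. Precision is set by how many arrays a group has, 5. The Dusp5 signal was lower in knockout than in wild-type cells by 4.82 ± 0.17 on the log2 scale after IL-33 (difference ± SE, adjusted p = 1.14e-13) and by 3.76 ± 0.17 untreated (1.39e-11). Of 12 eosinophil markers 8 were measured, all above the dim level, and their mean level was 10.75 to 10.88 on the knockout IL-33 arrays, 11.07 to 11.25 on the knockout untreated arrays, 10.82 to 11.01 on the wild-type IL-33 arrays and 11.11 to 11.23 on the wild-type untreated arrays. The labelled cell type thus had its markers on every array. Markers of other cells also had signal, with mean levels over all arrays of 8.54 to 9.40 for neutrophil and granulocyte-precursor markers. They were 7.53 to 8.12 for monocyte, macrophage and dendritic markers and 7.58 to 7.90 for mast cell and basophil markers. The purity of the cultures was not tested. Within a genotype, the IL-33 array and the untreated array with 1 replicate number deviated together from their group means. Over all tested genes their deviations correlated at 0.262 to 0.783, and each of the 10 pairs correlated best with its own number, also when the mitotic genes were left out (0.253 to 0.773). Over the 53 mitotic genes alone the same correlations were 0.055 (knockout mouse 5) to 0.794, arrays of different numbers reached 0.581, and 6 of the 10 pairs correlated best with their own number. The series text gives 5 mice per genotype, the number was read as the mouse, and IL-33 changes are given from the fit with the mouse as a block beside the fit without it. A gene is called where its adjusted p, corrected over all 11766 genes, was under 0.05.

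Cyclin-dependent kinase Cdk1 with the A- and B-type cyclins starts mitosis once phosphatases of the Cdc25 family have removed its inhibitory phosphates. Polo-like and Aurora kinases then build the spindle, kinesin motors and the kinetochore attach chromosomes to it, and the spindle checkpoint holds back the anaphase-promoting complex until every chromosome is attached. That complex, with its activator Cdc20, marks securin and the B-type cyclins for destruction, so that separase can cut cohesin and the sister chromatids part. Most of these transcripts are switched on late in the cell cycle through promoters with CCAAT boxes, bound by the factor NF-Y, and a cell-cycle element bound by the MuvB complex, and are low in cells that have stopped dividing. Mature eosinophils do not divide, whereas the marrow progenitors they come from do.

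Promoter sequences are shown for the first 4 genes, in a set order, whose window holds a TTTGAA element and at least 2 CCAAT boxes. Genes with both elements but 1 CCAAT box, such as Plk1, were passed over. That of Pttg1 is shown because its level moved against the others, and Pttg1 was chosen after its values were seen. The elements searched, on both strands, were the CCAAT box (CCAAT, or ATTGG on the other strand) and the cell-cycle element in its TTTGAA form (TTTGAA or TTCAAA). Each run below gives the 220 bases before and 10 bases after the annotated start in RefSeq GRCm38.p6, all 5 on the minus strand, written 5′ to 3′ along the gene, with the matches in capitals. The windows are chr10:69352903-69353132 for Cdk1, chr9:70421545-70421774 for Ccnb2, chr4:118437334-118437563 for Cdc20, chr11:99024180-99024409 for Top2a and chr11:43425972-43426201 for Pttg1.
Cdk1: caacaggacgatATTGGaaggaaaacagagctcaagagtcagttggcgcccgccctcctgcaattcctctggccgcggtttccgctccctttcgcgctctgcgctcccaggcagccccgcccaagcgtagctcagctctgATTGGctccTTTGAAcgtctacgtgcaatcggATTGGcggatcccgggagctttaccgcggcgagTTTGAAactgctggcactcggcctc
Ccnb2: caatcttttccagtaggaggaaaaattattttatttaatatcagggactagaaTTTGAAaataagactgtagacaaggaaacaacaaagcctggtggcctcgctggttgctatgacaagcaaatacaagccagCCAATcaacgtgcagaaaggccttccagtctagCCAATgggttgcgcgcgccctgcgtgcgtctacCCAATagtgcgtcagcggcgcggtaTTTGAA
Cdc20: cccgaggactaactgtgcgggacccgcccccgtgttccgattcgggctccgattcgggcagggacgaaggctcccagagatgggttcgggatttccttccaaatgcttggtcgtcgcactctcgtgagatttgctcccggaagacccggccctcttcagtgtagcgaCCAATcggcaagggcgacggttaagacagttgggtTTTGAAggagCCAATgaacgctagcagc
Top2a: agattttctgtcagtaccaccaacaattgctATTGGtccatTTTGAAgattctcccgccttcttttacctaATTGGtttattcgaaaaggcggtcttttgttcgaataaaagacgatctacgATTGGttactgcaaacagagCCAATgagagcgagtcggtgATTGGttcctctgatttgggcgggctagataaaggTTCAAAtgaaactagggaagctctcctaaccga
Pttg1: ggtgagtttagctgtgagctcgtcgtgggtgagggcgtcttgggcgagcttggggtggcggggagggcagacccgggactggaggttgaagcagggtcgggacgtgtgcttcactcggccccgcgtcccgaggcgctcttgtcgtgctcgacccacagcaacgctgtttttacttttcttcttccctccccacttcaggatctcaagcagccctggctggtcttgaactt
The Cdk1 and Ccnb2 runs hold 3 CCAAT boxes and 2 TTTGAA elements each, the Cdc20 run holds 2 and 1, the Top2a run holds 5 and 2, and the Pttg1 run holds none of either. The promoter table held 49 windows of 300 bases (250 before and 50 after the start) for 45 of the 55 genes. A CCAAT box lay in 37 of the 49 (75.5%), against 37.4% of the 32851 windows of all genes. TTTGAA lay in 32 (65.3%), against 17.9%, and both lay in 28 (57.1%), against 6.95%. Neither motif lay in 8 of the 49, the windows of Nuf2, Nusap1, Ncaph, Birc5, Melk, Plk4, Mad2l1 and Pttg1. The 2 motifs overlapped each other in 1 of the 49 windows. No entry matched Ccna2, Cdc25c, Pbk, Aurkb, Incenp, Kif20a, Tpx2, Smc4, Cdca2 and Foxm1.

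IL-33 lowered nearly all of the mitotic genes within each mouse. With the mouse as a block, 49 of 53 were called lower in knockout cells, where 42% of all tested genes were called lower, and 46 of 53 in wild-type cells, where the background was 37%. A single member, Pttg1, was called higher in both genotypes, against a background of 23.5% called higher in knockout and 20.8% in wild-type cells. The median change was -0.53 in knockout cells, 1.45-fold lower, and -0.43 in wild-type cells, 1.35-fold lower, while the median over all tested genes was -0.08 in knockout and -0.05 in wild-type cells. The fit without the block called 10 lower in knockout cells (background 33.2%) and 4 in wild-type cells (26.7%), and again only Pttg1 higher (18.9% of all genes in knockout and 16.1% in wild-type cells). Those called lower without it were Cdc25b, Ttk, Cdca3, Cdca5, Cenpa, Ndc80, Kif23, Kif22, Ncapd2 and Cdca2 in knockout cells, and Ttk, Cenpa, Kif23 and Cdca2 in wild-type cells. Leaving out 1 array at a time gave 5 to 24 in knockout cells (3630 to 3955 of all genes) and 1 to 11 in wild-type cells (2873 to 3140). With the block, leaving out 1 mouse at a time left 48 to 49 called lower in knockout cells (4567 to 4752 of all genes). In wild-type cells it left 43 to 47 (4002 to 4248). The RNA came from whole cultures, so fewer dividing cells and less of each transcript per dividing cell cannot be told apart.

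The direction was also counted mouse by mouse. In all 5 knockout mice 50 of the 53 were lower after IL-33 (background 41.3%), in all 5 wild-type mice 43 (36%), and in all 10 mice 42 (33.1%). Pttg1 was higher in all 10. The remaining 10, Cdc25c, Plk4, Aurka, Melk, Bub1b, Cenpe, Prc1, Ect2, Smc2 and Foxm1, did not move one way in every mouse. The mean level of the 53 genes was 7.53, 6.44, 6.73, 6.45 and 6.81 after IL-33 and 7.92, 7.00, 7.32, 7.03 and 7.39 untreated in knockout mice 1 to 5. Wild-type mice 1 to 5 had means of 7.76, 6.66, 8.26, 7.41 and 8.03 after IL-33 and 8.03, 7.22, 8.70, 7.76 and 8.38 untreated. Every mouse went down, by 0.39 to 0.59 in knockout mice and by 0.27 to 0.56 in wild-type mice. The order of the mice was the same with and without IL-33, with knockout mouse 1 and wild-type mouse 3 the highest and mouse 2 the lowest of each genotype.

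**Figure D1:**
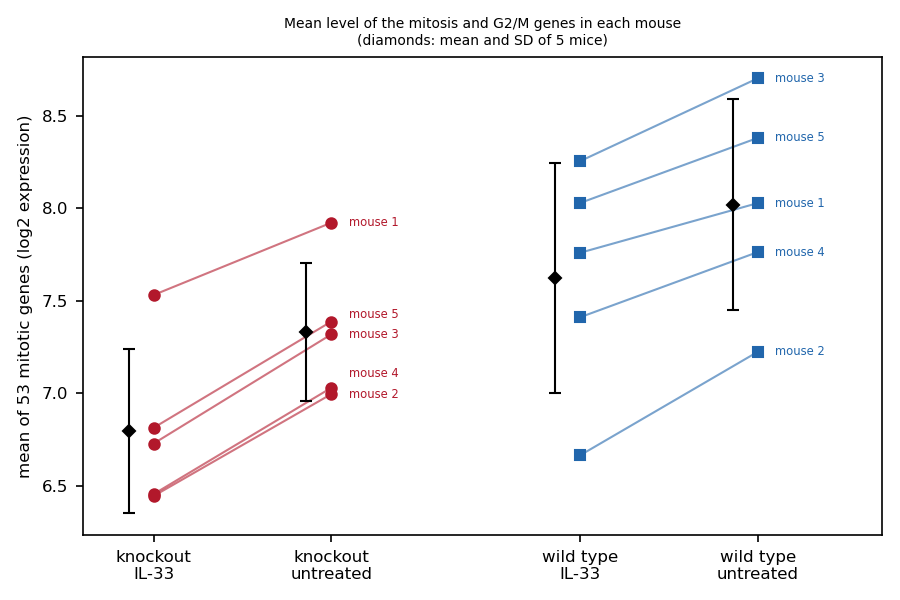
Mean log2 level of the 53 measured mitosis and G2/M genes in each mouse (vertical axis) after IL-33 and untreated, knockout (circles) left of wild type (squares). Lines join the 2 arrays of a mouse, and diamonds with bars give the mean and SD of 5 mice; all 10 lines run lower on the IL-33 side, and the genotypes overlap.

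The mice of a genotype differed far more in how much of these transcripts they held than in how IL-33 changed them. Over the 53 genes the median SD between mice of the untreated level was 0.39 in knockout and 0.61 in wild-type mice, while the median SD of the change within a mouse was 0.15 in knockout and 0.16 in wild-type mice. For all tested genes the medians were 0.15 in knockout and 0.16 in wild-type mice for the level, and the same for the change. The level spread exceeded the change spread for 52 of 53 genes in knockout and 53 of 53 in wild-type mice. The genes varied together over these mice. Over the 20 arrays' deviations from their group means, 49 of the 53 correlated with the mean of the other members at r above 0.9. The highest r was 0.995, the lowest above 0 was 0.64 for Kif23, and Pttg1 stood at -0.50. These correlations are descriptions, since 2 arrays share each mouse and all genes of an array share its RNA.

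**Figure D2:**
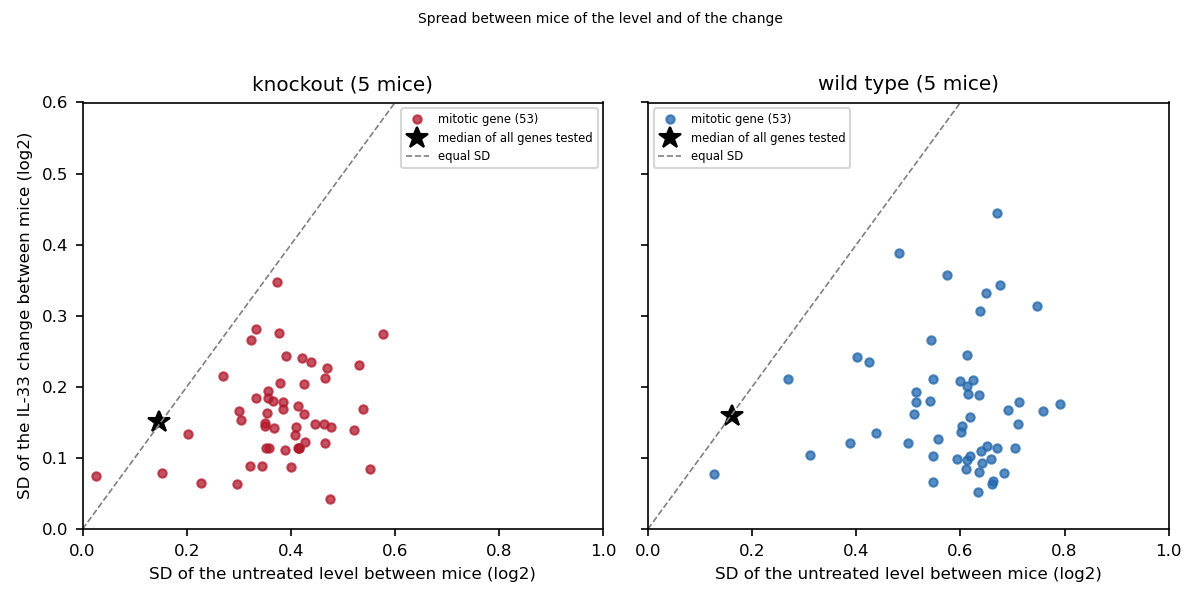
Standard deviation over 5 mice of the untreated log2 level (horizontal axis) and of the IL-33 change (vertical axis) for each mitotic gene (points), with the median of all tested genes (star) and the line of equal SD (dashed), knockout left of wild type. Nearly all mitotic genes lie right of the dashed line, whereas the star lies on it.

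The cyclins, Cdk1 and its activating phosphatases fell without exception, 5 of 5 measured members in each genotype in the fit with the mouse as a block. In that fit 42% of all tested genes fell in knockout and 37% in wild-type cells. Cdk1 read 8.54, 7.47, 7.72, 7.35 and 7.67 after IL-33 and 8.80, 7.83, 8.22, 7.87 and 8.18 untreated in knockout mice 1 to 5. Wild-type mice had Cdk1 levels of 8.71, 7.69, 9.21, 8.40 and 8.99 after IL-33 and 8.91, 8.03, 9.62, 8.59 and 9.26 untreated. Cdk1, the kinase that starts mitosis, was lower in each mouse and fell by 0.43 ± 0.05 in knockout cells (adjusted p = 1.72e-05) and by 0.28 ± 0.05 in wild-type cells (0.000734). Cdc25b, the phosphatase that first activates Cdk1 in G2, had the second largest fall of all members in knockout cells. Cdc25b read 7.04, 5.49, 6.14, 5.55 and 5.99 after IL-33 and 7.68, 6.81, 7.03, 6.73 and 7.18 untreated in knockout mice 1 to 5. Wild-type mice had Cdc25b levels of 7.13, 5.70, 7.41, 6.86 and 7.46 after IL-33 and 7.71, 6.90, 8.25, 7.42 and 8.10 untreated. The IL-33 levels of Cdc25b lay below the untreated ones of the same mouse in all 10, and it fell by 1.05 ± 0.11 in knockout cells (adjusted p = 2.46e-06) and by 0.76 ± 0.11 in wild-type cells (5.26e-05), which is 2.06-fold lower in knockout and 1.70-fold lower in wild-type cells. Ccna2 (cyclin A2) fell by 0.70 ± 0.05 in knockout and 0.43 ± 0.05 in wild-type cells. For Ccnb2 (cyclin B2) the falls were 0.67 ± 0.07 in knockout and 0.51 ± 0.07 in wild-type cells. Cdc25c, a further Cdk1 phosphatase, fell by 0.50 ± 0.11 in knockout and 0.40 ± 0.11 in wild-type cells, lower in 5 of 5 knockout and 4 of 5 wild-type mice.

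Among the mitotic kinases 5 of 6 fell in knockout and 3 of 6 in wild-type cells, where 42% of all genes fell in knockout and 37% in wild-type cells. Plk1 read 8.17, 6.74, 7.30, 6.87 and 7.28 after IL-33 and 8.53, 7.38, 7.97, 7.44 and 7.88 untreated in knockout mice 1 to 5. Wild-type mice had Plk1 levels of 8.45, 7.02, 9.07, 8.03 and 8.76 after IL-33 and 8.66, 7.65, 9.57, 8.38 and 9.01 untreated. Plk1, the polo-like kinase of mitotic entry and spindle assembly, was lower in every mouse and fell by 0.57 ± 0.07 in knockout cells (adjusted p = 1.02e-05) and by 0.38 ± 0.07 in wild-type cells (0.000367). Aurka encodes Aurora A, the kinase of the spindle poles. Aurka read 7.56, 6.05, 6.82, 6.27 and 6.69 after IL-33 and 7.62, 6.57, 7.07, 6.67 and 6.94 untreated in knockout mice 1 to 5. Wild-type mice had Aurka levels of 7.74, 6.36, 8.35, 7.36 and 8.11 after IL-33 and 7.70, 6.68, 8.52, 7.36 and 8.15 untreated. Aurka was lower in 5 of 5 knockout and 4 of 5 wild-type mice. It fell by 0.30 ± 0.07 in knockout cells (adjusted p = 0.00241) and was not called in wild-type cells (-0.10 ± 0.07, 0.243). Nek2, a centrosome kinase, fell by 0.64 ± 0.07 in knockout and 0.45 ± 0.07 in wild-type cells, and Pbk by 0.20 ± 0.05 in knockout and 0.20 ± 0.05 in wild-type cells. Melk fell in knockout cells by 0.37 ± 0.06 and stood at -0.02 ± 0.06 in wild-type cells (adjusted p = 0.762). Plk4, which starts centriole duplication, was not called in either genotype (-0.20 ± 0.10 in knockout and -0.13 ± 0.10 in wild-type cells). The difference between genotypes in the change of Aurka (-0.20 ± 0.10, adjusted p = 0.402) and Melk (-0.35 ± 0.08, 0.132) did not pass the test.

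Of the spindle checkpoint genes, 3 of 3 fell in knockout (background 42%) and 2 of 3 in wild-type cells (37%). Ttk read 5.58, 4.76, 4.43, 4.43 and 4.54 after IL-33 and 6.33, 5.33, 5.71, 5.61 and 5.90 untreated in knockout mice 1 to 5. Wild-type mice had Ttk levels of 6.07, 4.88, 6.41, 5.35 and 6.01 after IL-33 and 6.52, 5.80, 7.32, 6.31 and 7.10 untreated. Ttk, the checkpoint kinase also called Mps1, was lower after IL-33 in every mouse, and in knockout cells the 2 sets of values overlapped only because mouse 1 after IL-33 (5.58) lay above mouse 2 untreated (5.33). It fell by 1.03 ± 0.12 in knockout cells (adjusted p = 6.32e-06) and by 0.87 ± 0.12 in wild-type cells (3.92e-05), the largest fall of any member in wild-type cells. In the fit without the block the wild-type call of Ttk was lost in the fit of only the 2 groups compared (adjusted p = 0.0541) and without the IL-33 array of wild-type mouse 2 (0.0891) or 4 (0.0695) or the untreated array of wild-type mouse 3 (0.0845) or 5 (0.0752). Bub1 is a checkpoint kinase of the kinetochore. Bub1 read 8.15, 6.93, 7.43, 7.04 and 7.24 after IL-33 and 8.24, 7.22, 7.61, 7.28 and 7.72 untreated in knockout mice 1 to 5. Wild-type mice had Bub1 levels of 8.34, 7.24, 8.84, 7.91 and 8.65 after IL-33 and 8.45, 7.53, 9.07, 8.01 and 8.78 untreated. Bub1 had a small fall of 0.25 ± 0.06 in knockout cells (adjusted p = 0.002) and of 0.17 ± 0.06 in wild-type cells (0.0227), lower in all 10 mice, and the wild-type call was lost without wild-type mouse 2 (adjusted p = 0.0861) or mouse 3 (0.0648). Bub1b (BubR1) fell by 0.39 ± 0.06 in knockout cells and stood at -0.14 ± 0.06 in wild-type cells (adjusted p = 0.051).

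All 4 genes of the chromosomal passenger complex, which corrects faulty attachments and steers cytokinesis, fell in both genotypes. The background was 42% in knockout and 37% in wild-type cells. Aurkb encodes Aurora B, the kinase of the complex. Aurkb read 6.75, 5.49, 5.76, 5.43 and 5.73 after IL-33 and 6.75, 5.92, 6.15, 6.07 and 6.46 untreated in knockout mice 1 to 5. Wild-type mice had Aurkb levels of 6.67, 5.72, 7.56, 6.22 and 7.08 after IL-33 and 7.14, 6.25, 7.75, 6.46 and 7.32 untreated. Aurkb hardly differed between the 2 arrays of knockout mouse 1 and was clearly lower after IL-33 in the others, and it fell by 0.44 ± 0.09 in knockout cells (adjusted p = 0.001) and by 0.33 ± 0.09 in wild-type cells (0.00758). Birc5 read 8.79, 7.57, 7.83, 7.73 and 8.09 after IL-33 and 9.24, 8.21, 8.59, 8.25 and 8.64 untreated in knockout mice 1 to 5. Wild-type mice had Birc5 levels of 9.03, 7.83, 9.87, 8.82 and 9.44 after IL-33 and 9.31, 8.36, 10.10, 9.18 and 9.81 untreated. Birc5 (survivin), the subunit that brings the complex to centromeres, fell by 0.59 ± 0.06 in knockout cells (adjusted p = 1.74e-06) and by 0.35 ± 0.06 in wild-type cells (0.000179), with no mouse going the other way. The scaffold subunit Incenp fell by 0.40 ± 0.05 in knockout and 0.30 ± 0.05 in wild-type cells. Borealin, encoded by Cdca8, fell by 0.48 ± 0.05 in knockout and 0.33 ± 0.05 in wild-type cells.

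The genes of anaphase ubiquitination and sister separation split into 5 that fell in both genotypes and 1 that rose in both. Of all tested genes, 42% fell and 23.5% rose in knockout cells, and 37% fell and 20.8% rose in wild-type cells. Cdc20 read 9.71, 8.25, 8.87, 8.27 and 8.84 after IL-33 and 10.29, 8.92, 9.63, 9.01 and 9.43 untreated in knockout mice 1 to 5. Wild-type mice had Cdc20 levels of 9.90, 8.59, 10.54, 9.58 and 10.23 after IL-33 and 10.33, 9.16, 10.90, 10.01 and 10.69 untreated. Cdc20, the activator of the anaphase-promoting complex, was lower in each of the 10 mice and fell by 0.67 ± 0.05 in knockout cells (adjusted p = 1.42e-07) and by 0.45 ± 0.05 in wild-type cells (7.18e-06). Ube2c encodes the ubiquitin-conjugating enzyme that works with that complex. Ube2c read 10.69, 9.19, 9.84, 9.20 and 9.68 after IL-33 and 10.89, 9.87, 10.21, 9.84 and 10.28 untreated in knockout mice 1 to 5. Wild-type mice had Ube2c levels of 10.77, 9.48, 11.29, 10.52 and 11.23 after IL-33 and 10.96, 9.92, 11.69, 10.73 and 11.53 untreated. Ube2c fell by 0.50 ± 0.07 in knockout cells (adjusted p = 5.12e-05) and by 0.31 ± 0.07 in wild-type cells (0.00239), also lower in every mouse. Cdca5 (sororin, a protector of cohesin) fell by 0.85 ± 0.06 in knockout and 0.59 ± 0.06 in wild-type cells. Cdca3 fell by 0.72 ± 0.06 in knockout and 0.57 ± 0.06 in wild-type cells. Espl1, which encodes separase, fell by 0.54 ± 0.08 in knockout and 0.40 ± 0.08 in wild-type cells.

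Pttg1 encodes securin, the inhibitor of separase, and it was the member that rose. Pttg1 read 9.31, 9.19, 9.26, 9.20 and 9.08 after IL-33 and 8.50, 8.48, 8.54, 8.51 and 8.48 untreated in knockout mice 1 to 5. Wild-type mice had Pttg1 levels of 9.26, 9.25, 8.93, 9.26 and 9.20 after IL-33 and 8.48, 8.60, 8.28, 8.54 and 8.37 untreated. The lowest IL-33 array lay above the highest untreated array in each genotype. It rose by 0.71 ± 0.05 in knockout cells (adjusted p = 6.95e-08) and by 0.73 ± 0.05 in wild-type cells (8.86e-08), which is 1.63-fold higher in knockout and 1.65-fold higher in wild-type cells, and it was called in the fit without the block too. It varied little between mice, with an SD of the untreated level of 0.03 in knockout and 0.13 in wild-type mice. Knockout mouse 1 and wild-type mouse 3, the highest of their genotype for the mean of the members, had Pttg1 levels of 8.50 (knockout mouse 1) and 8.28 (wild-type mouse 3) untreated, and 8.28 was the lowest among the wild-type mice.

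**Figure D3:**
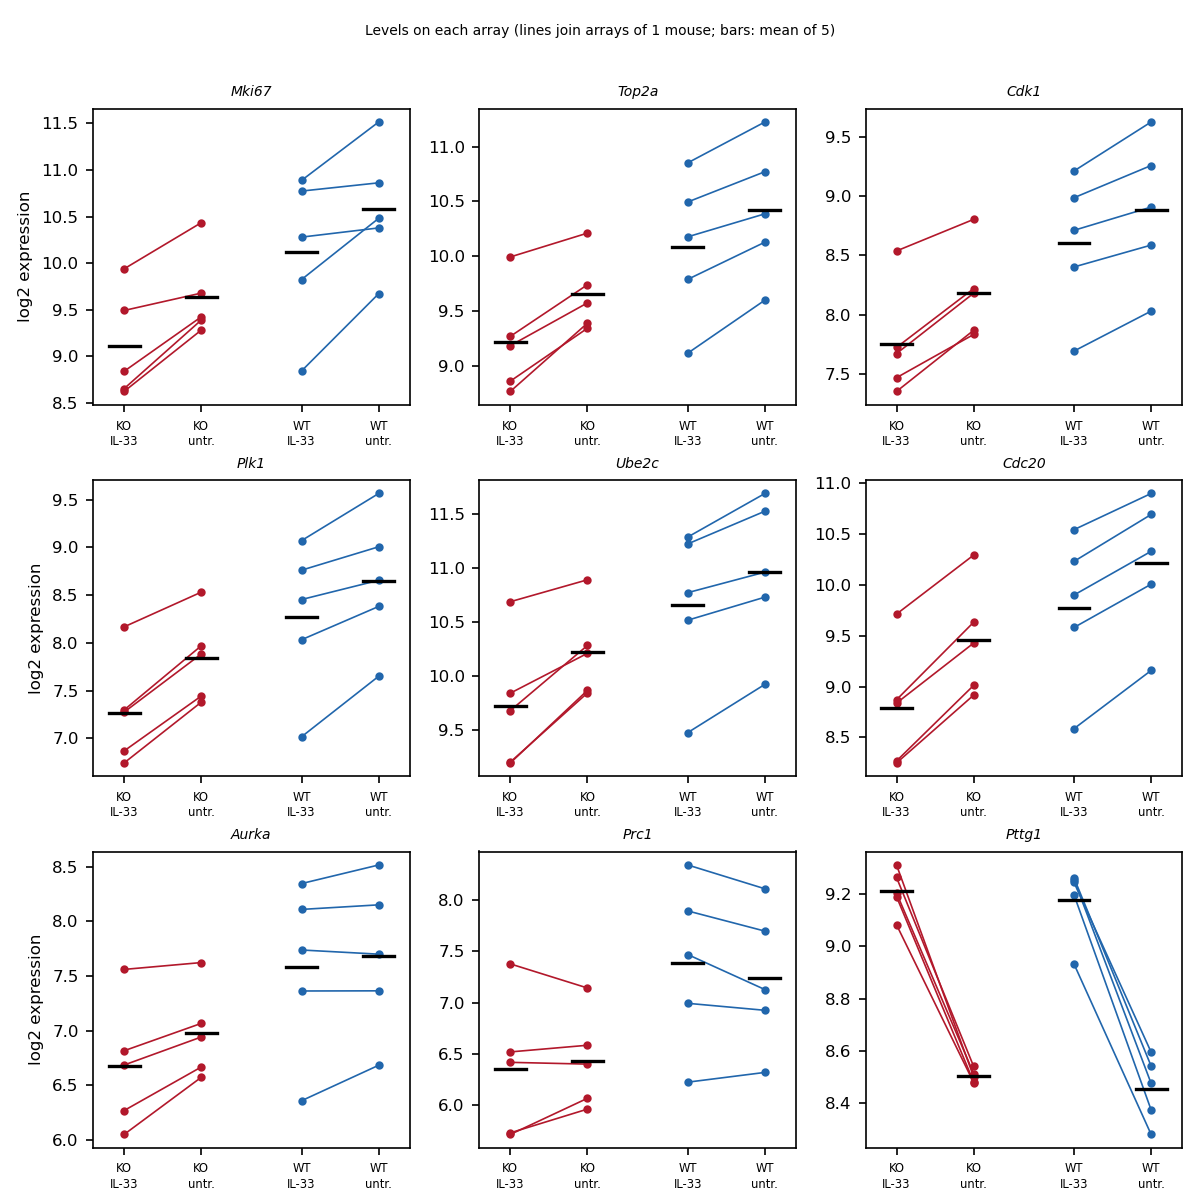
Log2 level (vertical axes, each on its own range) of 9 mitotic genes on all 20 arrays, with IL-33 left of untreated and knockout (KO, red) left of wild type (WT, blue); lines join the 2 arrays of a mouse and bars give the mean of 5. For Mki67, Top2a, Cdk1, Plk1, Ube2c and Cdc20 every line runs lower on the IL-33 side, Aurka and Prc1 change unevenly, and Pttg1 is higher after IL-33 in all 10 mice.

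All 8 centromere and kinetochore genes fell in both genotypes (background 42% in knockout and 37% in wild-type cells). Cenpe is the kinesin that carries chromosomes to the spindle equator. Cenpe read 6.10, 4.29, 4.73, 4.05 and 5.12 after IL-33 and 6.24, 4.79, 5.23, 4.86 and 5.31 untreated in knockout mice 1 to 5. Wild-type mice had Cenpe levels of 6.48, 4.24, 6.86, 5.59 and 6.49 after IL-33 and 6.47, 5.37, 7.18, 6.18 and 6.65 untreated. The change of Cenpe was uneven, at 0.01 in wild-type mouse 1 and -1.12 in wild-type mouse 2. It averaged -0.42 ± 0.14 in knockout (adjusted p = 0.0174) and -0.44 ± 0.14 in wild-type cells (0.0174). The call was lost without knockout mouse 3 (adjusted p = 0.0501) or 4 (0.0751), and without wild-type mouse 2 (0.0745) or 4 (0.055).

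Cenpf, a large kinetochore protein of G2 and mitosis, had 1 of the larger genotype differences. That difference was not called without a block or with a random block, untreated or after IL-33, and the genotypes overlapped. Cenpf read 7.79, 6.26, 6.50, 6.39 and 6.92 after IL-33 and 8.30, 6.93, 7.36, 7.06 and 7.34 untreated in knockout mice 1 to 5. Wild-type mice had Cenpf levels of 8.07, 6.38, 8.51, 7.70 and 8.41 after IL-33 and 8.19, 7.23, 9.24, 8.07 and 8.68 untreated. Cenpf was lower after IL-33 in every mouse and fell by 0.63 ± 0.10 in knockout cells (adjusted p = 0.00012) and by 0.47 ± 0.10 in wild-type cells (0.0014). Cenpa, the histone variant that marks centromeres, fell by 0.71 ± 0.06 in knockout and 0.52 ± 0.06 in wild-type cells. Ndc80, Nuf2 and Spc25, subunits of the complex that grips microtubules, fell by 0.82, 0.64 and 0.50 in knockout cells and by 0.54, 0.47 and 0.33 in wild-type cells. Cenpk fell by 0.65 in knockout and 0.46 in wild-type cells, and Cenph by 0.34 in knockout and 0.58 in wild-type cells.

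Of 9 genes for spindle motors and microtubule proteins, 8 fell in each genotype (background 42% in knockout and 37% in wild-type cells). Kif11 encodes Eg5, the motor that pushes the spindle poles apart. Kif11 read 7.13, 5.97, 6.12, 6.15 and 6.36 after IL-33 and 7.51, 6.67, 6.88, 6.86 and 7.22 untreated in knockout mice 1 to 5. Wild-type mice had Kif11 levels of 7.30, 6.15, 7.97, 6.84 and 7.59 after IL-33 and 7.80, 7.12, 8.64, 7.35 and 8.18 untreated. Kif11 was lower after IL-33 in each of the 10 mice and fell by 0.68 ± 0.08 in knockout cells (adjusted p = 7.55e-06) and by 0.65 ± 0.08 in wild-type cells (1.73e-05). Tpx2 encodes a spindle assembly factor that activates Aurora A. Tpx2 read 6.10, 4.84, 5.53, 5.15 and 5.47 after IL-33 and 7.08, 5.79, 6.41, 5.85 and 6.15 untreated in knockout mice 1 to 5. Wild-type mice had Tpx2 levels of 6.62, 5.55, 7.23, 6.17 and 7.04 after IL-33 and 6.98, 5.83, 7.92, 6.80 and 7.48 untreated. Tpx2 fell by 0.84 ± 0.07 in knockout cells (adjusted p = 4.16e-07) and by 0.48 ± 0.07 in wild-type cells (7.73e-05), lower in all mice. The other kinesins Kif20a, Kif23, Kif2c, Kif4 and Kif22 fell by 0.37 (Kif4) to 0.76 (Kif22) in knockout and by 0.40 (Kif4) to 0.62 (Kif23) in wild-type cells. Nusap1, a microtubule bundler, fell by 0.49 ± 0.06 in knockout and 0.30 ± 0.06 in wild-type cells.

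Prc1, the protein that bundles the central spindle, was the motor-group member that did not fall. Prc1 read 7.38, 5.72, 6.42, 5.73 and 6.52 after IL-33 and 7.14, 6.07, 6.40, 5.96 and 6.58 untreated in knockout mice 1 to 5. Wild-type mice had Prc1 levels of 7.47, 6.23, 8.34, 6.99 and 7.89 after IL-33 and 7.13, 6.32, 8.11, 6.92 and 7.69 untreated. The mice went both ways, from -0.35 in knockout mouse 2 to 0.34 in wild-type mouse 1, and Prc1 was lower after IL-33 in 3 of 5 knockout and 1 of 5 wild-type mice. The change was -0.08 ± 0.08 in knockout (adjusted p = 0.413) and 0.15 ± 0.08 in wild-type cells (0.141), so neither direction was called.

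The 3 cytokinesis genes fell in both genotypes (background 42% in knockout and 37% in wild-type cells). Anln read 6.99, 6.11, 6.45, 6.07 and 6.33 after IL-33 and 7.32, 6.56, 6.69, 6.69 and 6.93 untreated in knockout mice 1 to 5. Wild-type mice had Anln levels of 7.40, 6.07, 7.93, 6.96 and 7.76 after IL-33 and 7.52, 6.73, 8.30, 7.17 and 7.96 untreated. Anln (anillin, a scaffold of the contractile ring) was lower in every mouse and fell by 0.45 ± 0.08 in knockout cells (adjusted p = 0.000297) and by 0.31 ± 0.08 in wild-type cells (0.0044). Racgap1, a subunit of centralspindlin, fell by 0.79 ± 0.06 in knockout and 0.67 ± 0.06 in wild-type cells. Ect2 fell by 0.43 ± 0.12 in knockout and 0.37 ± 0.12 in wild-type cells, and its wild-type call (adjusted p = 0.0233) was lost without wild-type mouse 1 (0.0754), 2 (0.105) or 4 (0.0697).

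All 8 genes of condensin and chromosome structure fell in both genotypes (background 42% in knockout and 37% in wild-type cells). Mki67 encodes Ki-67, the coat protein of mitotic chromosomes and the common marker of cycling cells. Mki67 read 9.94, 8.65, 8.84, 8.62 and 9.49 after IL-33 and 10.43, 9.39, 9.42, 9.28 and 9.68 untreated in knockout mice 1 to 5. Wild-type mice had Mki67 levels of 10.28, 8.84, 10.89, 9.82 and 10.77 after IL-33 and 10.38, 9.67, 11.51, 10.48 and 10.86 untreated. Mki67 was lower in every mouse, by as little as 0.09 in wild-type mouse 5, and fell by 0.53 ± 0.11 in knockout cells (adjusted p = 0.00101) and by 0.46 ± 0.11 in wild-type cells (0.00332). Top2a encodes the topoisomerase that untangles sister chromatids. Top2a read 9.99, 8.77, 9.18, 8.86 and 9.27 after IL-33 and 10.21, 9.39, 9.57, 9.34 and 9.74 untreated in knockout mice 1 to 5. Wild-type mice had Top2a levels of 10.18, 9.12, 10.85, 9.79 and 10.49 after IL-33 and 10.39, 9.60, 11.22, 10.13 and 10.77 untreated. Top2a fell by 0.44 ± 0.06 in knockout cells (adjusted p = 3.95e-05) and by 0.34 ± 0.06 in wild-type cells (0.000431), again in each mouse. Smc4 read 9.72, 9.10, 9.12, 9.003 and 9.30 after IL-33 and 10.04, 9.54, 9.62, 9.45 and 9.72 untreated in knockout mice 1 to 5. Wild-type mice had Smc4 levels of 9.87, 9.19, 10.32, 9.69 and 10.13 after IL-33 and 10.09, 9.71, 10.71, 9.98 and 10.40 untreated. Smc4, a core condensin subunit, fell by 0.43 ± 0.05 in knockout cells (adjusted p = 1.43e-05) and by 0.34 ± 0.05 in wild-type cells (0.00014).

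Cdca2 (Repo-Man), the subunit that brings a phosphatase to chromosomes at mitotic exit, had the largest fall of all members in knockout cells. Cdca2 read 5.57, 3.98, 4.34, 4.22 and 4.57 after IL-33 and 6.33, 5.33, 5.61, 5.19 and 5.60 untreated in knockout mice 1 to 5. Wild-type mice had Cdca2 levels of 5.99, 4.53, 6.04, 5.18 and 5.96 after IL-33 and 6.55, 5.56, 7.10, 6.03 and 6.78 untreated. Each of the 10 mice had less Cdca2 after IL-33, by 0.77 to 1.35 in knockout and 0.55 to 1.06 in wild-type mice. It fell by 1.08 ± 0.09 in knockout cells (adjusted p = 3.88e-07) and by 0.86 ± 0.09 in wild-type cells (4.23e-06). In the fit without the block its wild-type call was lost under 8 alternatives, with adjusted p from 0.056 without a dim filter to 0.145 without the IL-33 array of wild-type mouse 2. They also took in quantile normalization (0.0756), the fit of only the 2 groups compared (0.0634), and the fits without the IL-33 array of wild-type mouse 4 or the untreated array of wild-type mouse 1, 3 or 5. The condensin subunits Smc2, Ncapd2, Ncapg and Ncaph fell by 0.65, 0.88, 0.65 and 0.39 in knockout and by 0.54, 0.72, 0.34 and 0.49 in wild-type cells.

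Foxm1, the transcription factor that drives many G2/M genes, did not pass the test itself. Foxm1 read 5.46, 5.17, 4.92, 5.06 and 5.01 after IL-33 and 5.73, 5.09, 5.32, 4.85 and 5.31 untreated in knockout mice 1 to 5. Wild-type mice had Foxm1 levels of 5.54, 4.69, 6.25, 5.46 and 5.85 after IL-33 and 5.73, 5.34, 6.42, 5.61 and 5.85 untreated. It was lower after IL-33 in 3 of 5 knockout and 5 of 5 wild-type mice. The change was -0.14 ± 0.10 in knockout (adjusted p = 0.248) and -0.23 ± 0.10 in wild-type cells (0.0634).

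**Figure D4:**
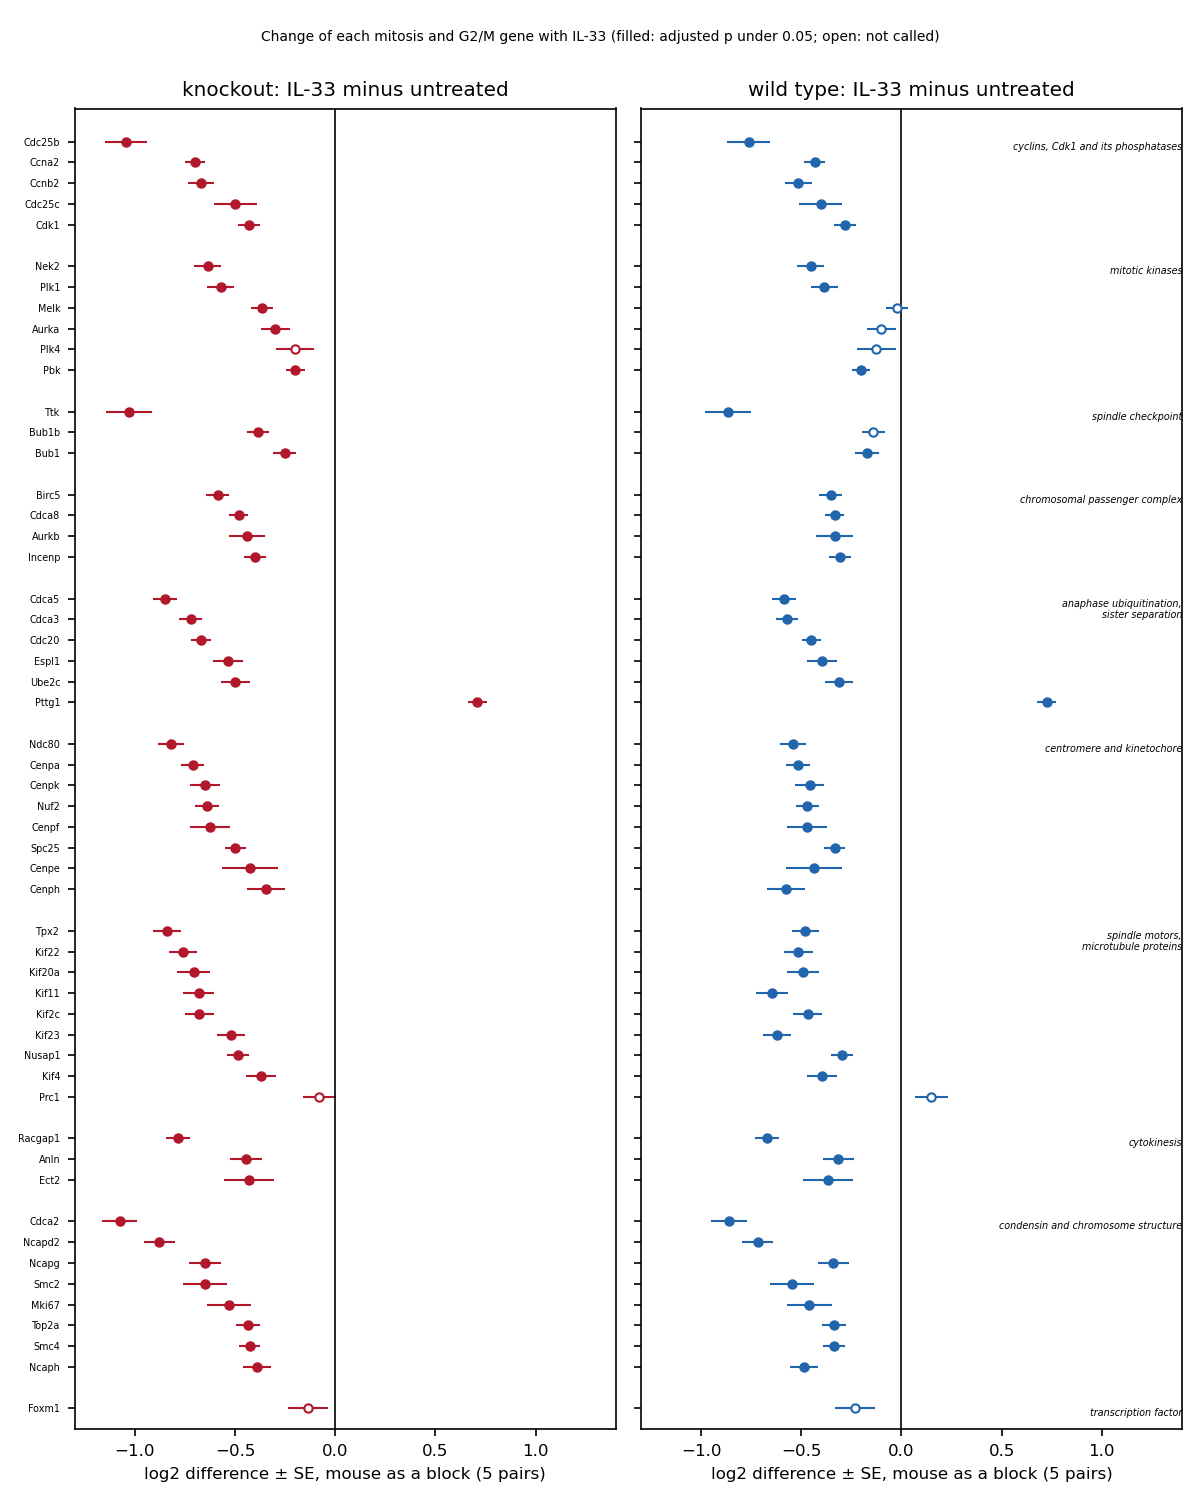
Change of each mitotic gene with IL-33 in knockout (left) and wild-type cells (right), as the log2 difference with its SE from the fit with the mouse as a block, grouped by role. Filled points passed an adjusted p of 0.05; 49 points in knockout and 46 in wild-type cells are filled left of 0, and Pttg1 is the filled point right of it in both.

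By promoter class the median changes lay between -0.55 and -0.37. The 26 measured genes with both motifs in a window had a median change of -0.55 in knockout and -0.42 in wild-type cells. The 17 with a window that lacked one or both had -0.49 in knockout and -0.45 in wild-type cells, and the 10 with no window had -0.47 in knockout and -0.37 in wild-type cells. The ranges overlapped, and Prc1, with both motifs, and Pttg1, with neither, were the highest of their classes. Nuf2, Nusap1, Ncaph and Birc5 also had neither motif and were called lower in both genotypes with the mouse as a block. Of the other measured genes with neither, Melk was called lower in knockout cells only and Plk4 was not called.

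Other cell-cycle genes were read from lists beside the members. Of 58 tested mitotic genes that are not members, 45 fell and 2 rose in knockout cells with the mouse as a block (background 42% and 23.5%). In wild-type cells 44 fell and 2 rose (37% and 20.8%). The medians were -0.43 in knockout and -0.36 in wild-type cells. Depdc1b fell by 1.29 ± 0.08 in knockout and 1.13 ± 0.08 in wild-type cells, Kif20b by 0.99 ± 0.08 in knockout and 0.71 ± 0.08 in wild-type cells and the centriole protein Stil by 0.90 ± 0.06 in knockout and 0.70 ± 0.06 in wild-type cells. Zwint, a kinetochore scaffold, named after its values were seen, had the largest rise of the list, by 0.87 ± 0.04 in knockout and 0.68 ± 0.04 in wild-type cells. All 27 tested S-phase genes fell in both genotypes (background 42% in knockout and 37% in wild-type cells). Their medians were -0.75 in knockout and -0.65 in wild-type cells, below those of the members. The replication licensing factors Cdt1 and Cdc6 led them. Cdt1 fell by 1.65 ± 0.06 in knockout and 1.43 ± 0.06 in wild-type cells, and Cdc6 by 1.37 ± 0.08 in knockout and 1.67 ± 0.08 in wild-type cells. Mcm5, a subunit of the replicative helicase, fell by 0.88 ± 0.05 in knockout and 0.65 ± 0.05 in wild-type cells, and Pcna, the polymerase clamp, by 0.39 ± 0.04 in knockout and 0.37 ± 0.04 in wild-type cells.

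Among all tested genes in the fit with the block, 42% fell and 23.5% rose in knockout cells, and 37% fell and 20.8% rose in wild-type cells, and the regulators of the members are read against these shares. Of 15 tested genes of the anaphase-promoting complex and its Cdh1 activator, 10 fell and 2 rose in knockout and 8 fell and 2 rose in wild-type cells (medians -0.21 in knockout and -0.16 in wild-type cells). Its inhibitor Fbxo5 (Emi1) fell by 0.85 ± 0.06 in knockout and 0.63 ± 0.06 in wild-type cells, and Fzr1, which encodes Cdh1, by 0.57 ± 0.06 in knockout and 0.36 ± 0.06 in wild-type cells. The subunits Cdc27 and Anapc10 rose, Cdc27 by 0.51 ± 0.14 in knockout and 0.52 ± 0.14 in wild-type cells and Anapc10 by 0.45 ± 0.08 in knockout and 0.49 ± 0.08 in wild-type cells. Of 11 cohesin genes 9 fell in each genotype, and 1 rose in knockout cells (medians -0.38 in knockout and -0.35 in wild-type cells), led by the acetyltransferase Esco2 (1.07 ± 0.07 in knockout and 0.88 ± 0.07 in wild-type cells) and the core subunit Smc3 (0.75 ± 0.06 in knockout and 0.85 ± 0.06 in wild-type cells). Of 14 genes of the DREAM, MuvB and B-Myb complexes, 9 fell and 3 rose in knockout and 8 fell and 3 rose in wild-type cells (medians -0.29 in each). The E2F partners Tfdp2 and Tfdp1 fell, Tfdp2 by 0.91 ± 0.05 in knockout and 0.94 ± 0.05 in wild-type cells and Tfdp1 by 0.72 ± 0.05 in knockout and 0.69 ± 0.05 in wild-type cells. Rbl1 (p107) fell by 0.87 ± 0.07 in knockout and 0.67 ± 0.07 in wild-type cells, and Mybl2 (B-Myb) by 0.30 ± 0.09 in knockout and 0.37 ± 0.09 in wild-type cells.

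Of 16 genes of the G2 checkpoint and Cdk1 inhibition, 8 fell and 4 rose in knockout and 9 fell and 5 rose in wild-type cells (medians -0.18 in knockout and -0.25 in wild-type cells), and in knockout cells these shares are near those of all genes. Cdkn1a (p21), an inhibitor of cyclin-dependent kinases, rose by 1.47 ± 0.12 in knockout and 1.03 ± 0.12 in wild-type cells. Gadd45b, a stress-response gene, rose by 1.13 ± 0.07 in knockout and 0.98 ± 0.07 in wild-type cells. Cdkn1b (p27), a related inhibitor, fell by 1.34 ± 0.12 in knockout and 1.09 ± 0.12 in wild-type cells, and Ccng2 (cyclin G2) by 1.32 ± 0.10 in knockout and 1.02 ± 0.10 in wild-type cells. Wee1, the kinase that holds Cdk1 inactive, fell by 0.29 ± 0.09 in knockout and 0.29 ± 0.09 in wild-type cells.

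Markers of other cells moved as follows. Beside them, 42% of all tested genes fell and 23.5% rose in knockout cells, against 37% and 20.8% in wild-type cells. Of 12 stem and progenitor markers 10 were tested, and with the mouse as a block 8 fell in knockout and 7 in wild-type cells (medians -0.61 in knockout and -0.43 in wild-type cells), among them Kit (-1.07 in knockout and -0.43 in wild-type cells, called in knockout cells only, with a genotype difference in the change of -0.65 ± 0.27, adjusted p = 0.305) and Sox4 (-1.45 in knockout and -1.06 in wild-type cells). Their summed linear signal was 1872 to 2296 on knockout IL-33 arrays, 2285 to 2752 on knockout untreated arrays, 2233 to 3417 on wild-type IL-33 arrays and 2547 to 3905 on wild-type untreated arrays. Of 15 neutrophil and granulocyte-precursor markers, 10 fell and 2 rose in knockout and 7 fell and 2 rose in wild-type cells (medians -0.27 in knockout and -0.14 in wild-type cells), with sums of 16815 to 25210 on knockout IL-33, 18090 to 28311 on knockout untreated, 16138 to 29717 on wild-type IL-33 and 18614 to 27788 on wild-type untreated arrays. Of 8 tested eosinophil markers, 4 fell and 1 rose in each genotype (medians -0.28 in knockout and -0.17 in wild-type cells), not far from the shares of all genes. Monocyte and macrophage markers had 6 falls and 2 rises of 12 in knockout and 4 falls and 3 rises in wild-type cells, also near those shares. Mast cell and basophil markers had 2 falls and 2 rises of 7 in knockout and 3 and 2 in wild-type cells. Erythroid and megakaryocyte markers had 3 and 2 of 6 in knockout and 2 and 2 in wild-type cells, lymphocyte markers 1 and 0 of 4 in knockout and 1 and 2 in wild-type cells, and stromal and endothelial markers 1 and 2 of 5 in knockout and 0 and 1 in wild-type cells. Mcpt4, Cd8a, Ms4a1, Alas2, Car1, Hba-a1, Col1a1, Col3a1 and Pdgfra were below the dim level on all arrays. The part of these cells in the falls of the mitotic genes was not tested.

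Knockout cells held less of the mitotic transcripts than wild-type cells on average, but no gene passed the test in untreated cells, and the arrays of the genotypes overlapped for all 53 genes. Untreated, the median difference was -0.71 (1.64-fold lower) and 52 of 53 differences were below 0, while the median over all genes was -0.0048. None was called lower (background 0.0085%) or higher (0.017%) by limma, with adjusted p from 0.383 to 0.774. At an unadjusted p under 0.05 there were 42 of the 53 and 12.9% of all genes. That count moved both ways when the untreated array of 1 mouse was left out. It was 5 without wild-type mouse 3, 11 without mouse 5, 24 without mouse 1, 41 without mouse 4 and 51 without mouse 2. Among knockout mice it was 12 without mouse 2, 14 without mouse 4, 26 without mouse 3, 31 without mouse 5 and 50 without mouse 1. The largest difference was that of Cenpe (-1.09 ± 0.46), followed by Mki67 (-0.94 ± 0.37) and Cenpf (-0.88 ± 0.40). Pttg1 alone was above 0 (0.05 ± 0.07). Knockout mouse 1 (mean of the members 7.92) lay within the wild-type range of 7.22 to 8.70, and wild-type mouse 2 (7.22) lay within the knockout range of 7.00 to 7.92. For none of the 53 did all 5 knockout arrays lie below all 5 wild-type arrays, against 0.569% of all tested genes.

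After IL-33 the median difference was -0.88 (1.84-fold lower), again with 52 of 53 below 0 and Pttg1 at 0.03 ± 0.07. The fit without a block called none lower (background 1.22%) or higher (0.986%), with 48 at an unadjusted p under 0.05 (24.1% of all genes) and the lowest adjusted p at 0.0741. The fit of only the 2 groups compared, with 1 array per mouse, also called none, with the lowest adjusted p at 0.106. With the mouse as a random block 20 were called lower (background 2.88%) and none higher (1.49%). These were Ccna2, Melk, Bub1b, Ttk, Birc5, Incenp, Espl1, Cdca3, Cdca5, Ndc80, Spc25, Kif20a, Kif2c, Kif22, Tpx2, Nusap1, Smc4, Ncapd2, Ncapg and Cdca2, with adjusted p from 0.0373 to 0.0493. Genotypes differ between mice, and that fit uses 1 correlation within mice for all genes (0.464). Its standard errors were smaller than without a block, 0.28 against 0.34 for Ccna2. Most mitotic genes varied far more between mice than in their change, so 0.464 is too low for them. Their errors in that fit are therefore too small for a comparison between mice, and the 20 calls rest on them. The largest was Tpx2, at -1.11 ± 0.30 (adjusted p = 0.0447). Cenpe (-1.07 ± 0.39) and Cenpf (-1.04 ± 0.34) were next in size, with wider errors, and were not called. Single arrays decided the count of the fit without a block: 38 were called lower without the IL-33 array of knockout mouse 1 (770 of all genes) and 49 without that of wild-type mouse 2 (1151 of all genes). In no case did all 5 knockout arrays lie below all 5 wild-type arrays, against 1.96% of all genes. After a further quantile normalization the calls over all genes were 72 lower and 151 higher, against 144 lower and 116 higher as deposited, and no mitotic gene was called.

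**Figure D5:**
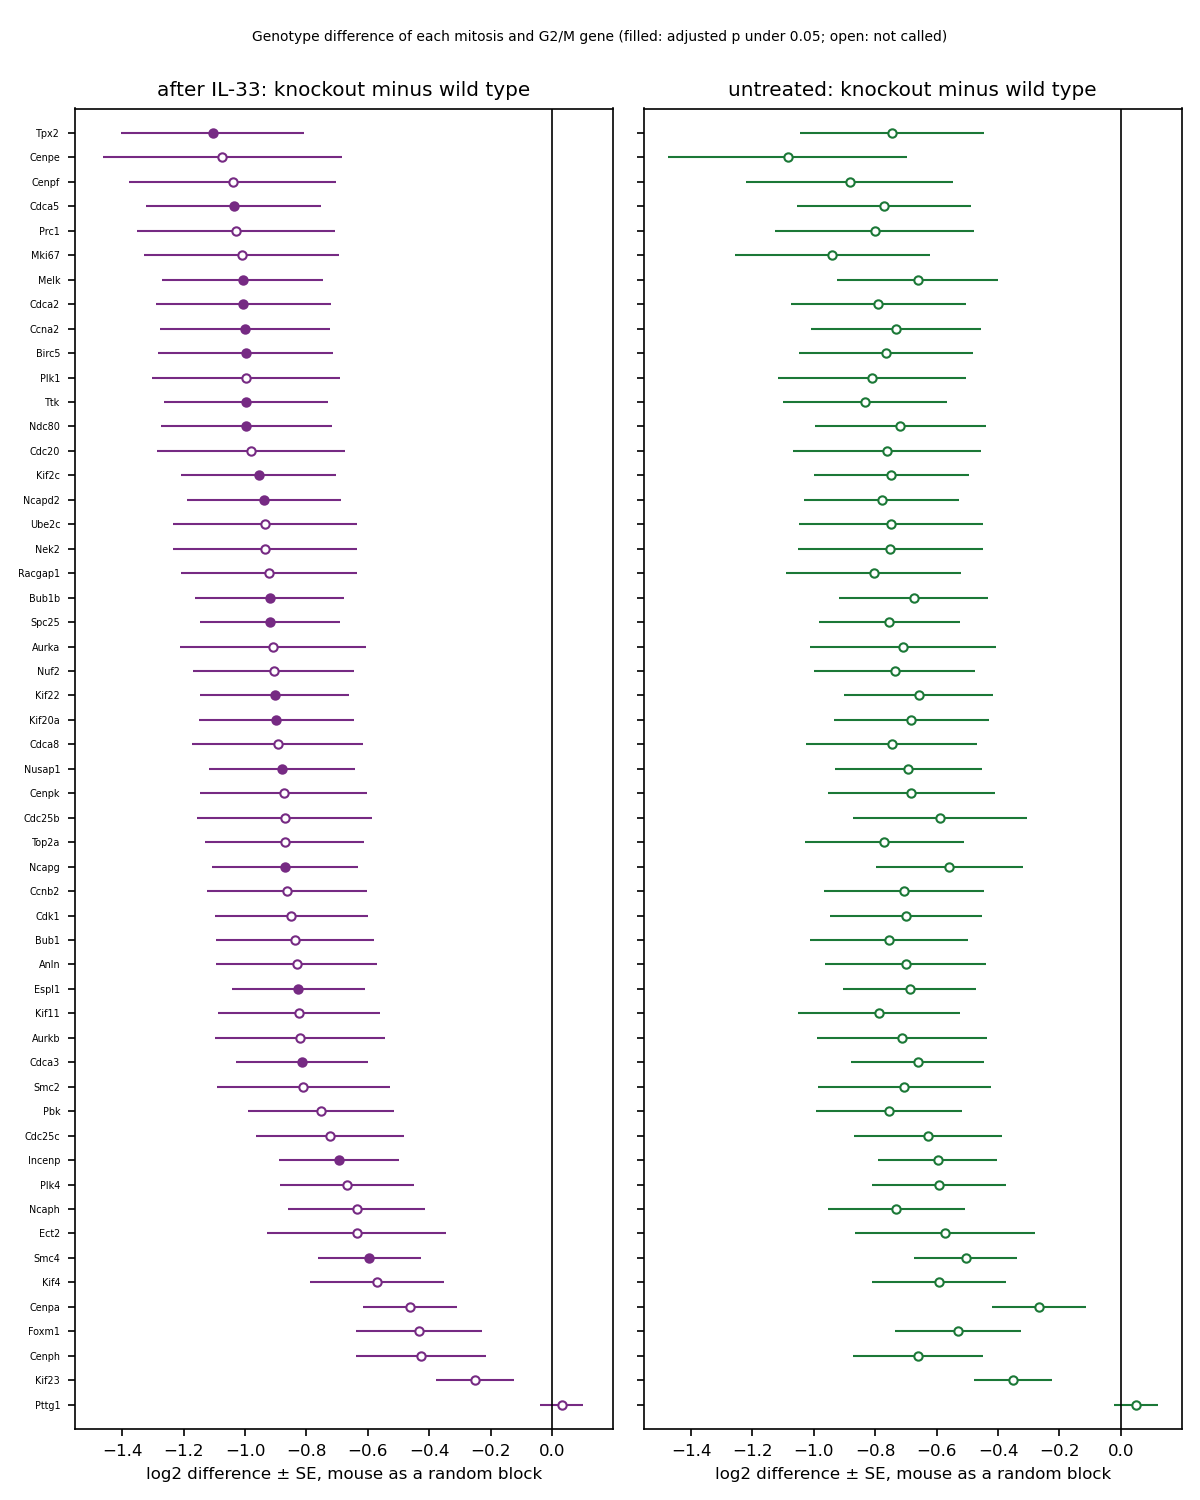
Difference of each mitotic gene, knockout minus wild type, after IL-33 (left) and untreated (right), as the log2 difference with its SE from the fit with the mouse as a random block, 5 mice of each genotype. Filled points passed an adjusted p of 0.05, with 20 filled after IL-33 and none untreated. The errors of this fit are too small for most of these genes, and none passed in the fit without a block. All genes but Pttg1 lie left of 0.

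The S-phase genes had a similar order of arrays. Their mean was 5.84 to 6.75 on knockout IL-33 arrays, 6.48 to 7.46 on knockout untreated arrays, 6.04 to 7.30 on wild-type IL-33 arrays and 6.72 to 7.95 on wild-type untreated arrays, and the highest mice were again knockout mouse 1 and wild-type mouse 3. All 27 were below 0 in both genotype comparisons (medians -0.70 after IL-33 and -0.64 untreated). The fit with a random block called 5 lower after IL-33 (background 2.88%) and none untreated. That fit used the correlation of 0.464 for these genes too. The SD of their mean between untreated mice was 0.40 in knockout and 0.48 in wild-type mice. Whether its errors are too small for them was not tested. The other mitotic genes had medians of -0.64 after IL-33 and -0.59 untreated. Stem and progenitor markers had medians of -0.16 after IL-33, with 2 of 10 called lower with a random block (background 2.88%), and -0.05 untreated with none called. Knockout mouse 5 was the highest of its genotype for the progenitor and the neutrophil-precursor markers in both treatments, while among wild-type mice it was mouse 3. Their part in the genotype difference was not tested.

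Whether the loss of Dusp5 changed the response to IL-33 was asked with the interaction. The IL-33 change was more negative in knockout than in wild-type cells for 46 of 53 genes, with a median difference of -0.16 against -0.03 over all genes. No member was called by limma without the block (0% of all tested genes, and 0 members at an unadjusted p under 0.05, against 4.83% of all genes) or with it (0%, lowest adjusted p 0.132). With the block 14 of the 53 members had an unadjusted p under 0.05, against 1633 of all 11766 genes (13.9%). The count of members was 25 of 53 without knockout mouse 1 (14.3% of all genes) and 22 without wild-type mouse 2 (15.1%). It was 9 without wild-type mouse 1 (11%) or 5 (11.8%). Without the block the direction turned with single arrays: 15 of 53 were below 0, with a median of 0.060, without the untreated array of wild-type mouse 2, 25 without the IL-33 array of wild-type mouse 3, and 29 without the untreated array of knockout mouse 1. With the block it did not turn, and leaving out 1 mouse gave 43 to 49 below 0. The largest differences were those of Tpx2 (-0.36 ± 0.10, adjusted p = 0.18), Melk (-0.35 ± 0.08, 0.132) and Ncapg (-0.31 ± 0.11, 0.247). Over mice the mean change of the 53 genes was -0.54 ± 0.08 in knockout and -0.40 ± 0.11 in wild-type mice (SD, n = 5 each), and the ranges overlapped, from -0.59 to -0.39 in knockout and from -0.56 to -0.27 in wild-type mice.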

How the data were processed

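Total RNA of 20 samples was made into biotin-labelled cRNA and hybridised to one-colour Affymetrix arrays, per the labels' protocols. The deposited table holds log2 expression values per probe set that the authors had already processed; their method and software: not given in the sources used here. Of 20630 probe sets, 17826 had exactly 1 symbol in the platform annotation. A gene was tested when it exceeded its array's 40th percentile (3.56 to 3.68) on at least 5 arrays. Differences were fitted in R 4.3.3 with limma 3.58.1 (lmFit and eBayes) over all 20 arrays with 1 mean per group, without a block (16 residual degrees of freedom), with the mouse as a fixed block for IL-33 changes and the interaction (8), and with the mouse as a random block (correlation within mice 0.464). P-values were adjusted by Benjamini-Hochberg over all 11766 genes. On simulated data the fits without a block and with a fixed block were tried, for the IL-33 change in knockout cells only. The random block, the genotype differences and the interaction were not tried. Each gene was drawn on its own there, unlike the mitotic genes, which vary together. Whether arrays of 1 number share a mouse was read from how they deviate together, since the series text names 5 mice per genotype but not which arrays share a mouse. Values per array are given for 16 measured genes picked across the roles, plus the members with the 3 largest falls, 3 largest rises and 3 largest genotype differences; from each other list, mainly the up to 4 called genes with the largest change. The members, gene lists and markers were chosen with earlier results of these data known. Alternatives were the dim filter, a quantile normalization, averaging probe sets, fewer groups, the blocks and leaving out arrays or mice. Groups came from the labels' treatment and genotype fields. The titles of the 10 IL-33 samples give genotype and replicate but do not name IL-33. They have the word Dusp5 where the titles of the others have Untreated.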

Additional observations from a re-analysis of the deposited data

Results flagged for a closer look

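Of 92 sets of 5 arrays looked at for the named genes and the mean of the members, 3 held an array far from the other 4, by a gap over 0.71 of the whole range. Chance sets apart about 1 such array in 20 independent sets. These 92 sets share the same 20 arrays and most of the genes varied together, so the count of 3 cannot be set against chance. Aurkb stood at 6.75 in knockout mouse 1 after IL-33, and the next array of that group was at 5.76. Ttk stood at 5.58 in the same array, and the next was at 4.76. Knockout mouse 1 also had the highest mean of the mitotic genes of its genotype with and without IL-33. Pttg1 stood at 8.93 in wild-type mouse 3 after IL-33, and the next array was at 9.20. That mouse had the highest mean of the mitotic genes among wild-type mice.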

How the results depend on the processing

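The numbers of mitotic genes called lower with IL-33 depended on how the mouse was treated. Against 10 in knockout cells without a block, the replicate block gave 49 as a fixed term, also with no dim filter (49), and 38 as a random term, and the fit of only the 2 groups compared gave 24. Against 4 in wild-type cells, the same alternatives gave 46, 46, 22 and 1. Of all 11766 genes, the fit without a block called 3909 lower in knockout and 3137 in wild-type cells. The fixed block called 4942 in knockout and 4356 in wild-type cells, and the random block 4785 in knockout and 4140 in wild-type cells. For only the 2 groups compared it was 3963 in knockout and 2872 in wild-type cells. With no dim filter the fixed block called 4857 in knockout and 4240 in wild-type cells of 17771 genes. Leaving out arrays or whole mice gave 5 to 49 in knockout cells (3630 to 4752 of all genes) and 1 to 47 in wild-type cells (2873 to 4248). Among fits without the block, the knockout count was 24 without the IL-33 array of mouse 1, 6 without that of mouse 2, 3 or 4, and 5 without the untreated array of mouse 1. The wild-type count was 9 without the IL-33 array of mouse 3 and 1 without that of mouse 2 or 4, and 11 without the untreated array of mouse 2 and 1 without that of mouse 3 or 5. The median change ranged from -0.74 to -0.39 in knockout and from -0.63 to -0.15 in wild-type cells. After IL-33, 20 genes were called lower in knockout than in wild-type cells with the random block (339 of all genes), whose errors are too small for most of the 20. The fit without a block called 0 (144 of all genes), and 0 to 49 when 1 array was left out (10 to 1151 of all genes). The median interaction ranged from -0.39 (without the IL-33 array of wild-type mouse 2) to 0.060 (without the untreated array of the same mouse). The paired fit left the interaction and the rise of Pttg1 on the same side of the threshold. No change of a named gene that was called turned its direction. Counts of genes called higher stayed at 1 with IL-33 in both genotypes, and both genotype medians moved by less than the SD between replicates, in all alternatives run.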
